A study of Mus musculus with 4 samples.

Results

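The genes described here are Shox2, Hcn4, Tbx3, Tbx2, Cacna2d2, Vsnl1, Cacna1g and Cacna1d, a set of 8 pacemaker and conduction genes taken by symbol from the 32285 genes of the count matrices. They were measured by single-cell RNA sequencing of E10.5 mouse hearts on the C57BL/6J background, with 2 wild-type libraries (Wt1 and Wt2) and 2 libraries from embryos homozygous for the Cyp51 I383V allele (Ho1 and Ho2). The allele is a constitutive knock-in made with CRISPR/Cas9, so every cell of an Ho heart carries it, and the label CRISPR/Cas9 stands on the Wt samples too. Hearts were dissociated with collagenase and the red blood cells were lysed, so that each library holds all the remaining cell types of the heart and of the tissue cut out with it. The genes were chosen by name and by 1 measured result of these data, namely that Cacna2d2 was higher in both Ho whole libraries. Its genotype difference is therefore given as a description without a test.

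These genes belong to the system that starts and paces the heartbeat. In the embryonic heart the beat begins at the inflow, in the sinus venosus, where the homeodomain factor Shox2 keeps the chamber programme low and the channel Hcn4 carries the depolarizing pacemaker current. The atrioventricular canal conducts slowly because the T-box repressors Tbx2 and Tbx3, acting downstream of Bmp2, keep chamber genes such as Nppa and Gja5 low there. Cacna1d and Cacna1g encode the pore of an L-type and a T-type calcium channel, Cacna2d2 encodes an auxiliary subunit of calcium channels, and Vsnl1 encodes a neuronal calcium sensor that is used as a marker of the sinus node and of inflow and atrial muscle.

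The filters on cells left 8908, 7154, 6980 and 6126 cells in Wt1, Wt2, Ho1 and Ho2, with 97179971, 105282895, 113478594 and 98379564 unique molecular identifiers (UMIs, 1 for each captured mRNA molecule). A cell had 10561, 14216, 15658 and 15832 UMIs at the median, so that Wt1 was the shallowest library. Any pair of libraries had between 9 and 28 cell barcodes in common, at most 0.401% of the smaller library. Ho1 stood apart from the others in its sex-linked genes, with 28877 UMIs of Xist and none of the Y-linked gene Ddx3y, while the other libraries had at most 5 UMIs of Xist and at least 2590 of Ddx3y. Ho1 also lacked epithelium-gated cells, of which Wt1 had 487, Wt2 had 192 and Ho2 had 283. In its Tnnt2-gated cells the blood markers summed to 220.7 CPM (counts-per-million of all UMIs of those cells), against 3.603, 8.358 and 13.69 in Wt1, Wt2 and Ho2. By the sex-linked counts Ho1 is female and the other libraries are male, so Ho1 and Ho2 do not come from the same embryo. Nothing in the labels says that Wt1 and Wt2 come from separate embryos, or any of the libraries from separate litters. The p-values thus measure the spread between these libraries, which may be technical in part and in Ho includes sex. Sex was not modelled in the comparison of Ho with Wt, where only Ho holds a female library.

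Cyp51, the gene that carries the allele, had 68.3, 64.6, 61.5 and 72 CPM in the Tnnt2-gated cells of Wt1, Wt2, Ho1 and Ho2. The allele changes 1 amino acid, and counts of molecules at the 3′ end of a transcript do not read it.

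Cardiomyocytes were taken as the cells with Tnnt2, cardiac troponin T, at 10 or more per 10000 UMIs. These were 1673, 2598, 3402 and 2377 cells of the 4 libraries in the same order, in all 10050 of 29168 cells, and 18.8%, 36.3%, 48.7% and 38.8% of their libraries. Their summed cardiomyocyte markers, of which the atrial light chain gene Myl7 had the most UMIs, stood at 46940, 47310, 44930 and 46440 CPM, against 423.6, 935.2, 1439 and 935.8 in mesenchyme-gated cells. Myl2, the ventricular myosin light chain, divided them at 10 per 10000 UMIs into Myl2-high and Myl2-low cells, and Stard10 divided each of these by whether a cell had a UMI of it. The Myl2-low Stard10-negative cells were the shallower ones, with a median of 8954 to 12828 UMIs in the 4 libraries against 15561 to 19491 in the Stard10-positive ones. UMI counts were summed per library and class and are given as CPM of the summed cells, always in the order Wt1, Wt2, Ho1, Ho2.

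Shox2 (chr3:66971727-66981771 on the minus strand of GRCm38) was, among the cardiomyocytes, high in the Myl2-low cells and near 0 in the Myl2-high Stard10-negative ones. In Myl2-high Stard10-negative cells it had 1.14, 0.803, 2.17 and 1.91 CPM. In Myl2-low Stard10-positive cells it had 135, 93.4, 81.7 and 176 CPM, and in Myl2-low Stard10-negative cells 135, 99.8, 141 and 191 CPM. Every library of both Myl2-low classes lay far above every library of the Myl2-high Stard10-negative class, by a log2 fold change of 6.05 (SE 0.20, edgeR adjusted p = 5.45e-17) and 6.15 (SE 0.21, adjusted p = 8.53e-17), higher in 4 of 4 libraries each. The 2 Myl2-low classes did not pass the test against each other (log2 fold change 0.10, SE 0.12, adjusted p = 0.504), but did with a Myl2 limit of 5 (0.33, adjusted p = 0.0294) and a Stard10 limit of 2 UMIs (0.46, adjusted p = 0.00345). Ho2 had the highest Shox2 level in both Myl2-low classes.

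Vsnl1 (chr12:11325242-11436613, minus strand) was also low in Myl2-high and high in Myl2-low cells. It had 2.28, 2.41, 5.02 and 2.47 CPM in Myl2-high Stard10-negative cells, 307, 249, 227 and 317 CPM in Myl2-low Stard10-positive cells and 245, 198, 230 and 273 CPM in Myl2-low Stard10-negative cells. The difference of the Myl2-low Stard10-positive from the Myl2-high Stard10-negative cells was 6.20 on the log2 scale (SE 0.16, adjusted p = 3.93e-19), and that of the Myl2-low Stard10-negative cells 5.84 (SE 0.17, adjusted p = 5.29e-18). Between the Myl2-low classes Vsnl1 was slightly lower without Stard10 (log2 fold change -0.36, SE 0.10, adjusted p = 0.00547, higher in 1 of 4 libraries), a call that was lost with DESeq2 (adjusted p = 0.366), with a Myl2 limit of 5 (0.262), with a Stard10 limit of 2 UMIs (0.681) and with gates from thinned cells (0.0959).

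Because Vsnl1 and Hcn4 were higher in the cells with a Shox2 UMI described further on, the sequences around the annotated start sites of the 3 genes are shown, from 250 bases before to 50 bases after each RefSeq start on GRCm38.p6, 5′ to 3′ on the strand of the gene. The reference table held such windows for 5 of the 8 genes. Capitals mark the letters GGTGTG, the core of the site that T-box factors bind, or its reverse complement CACACC. The Shox2 window is chr3:66981722-66982021, the Hcn4 window chr9:58822699-58822998, and the Vsnl1 windows are chr12:11436529-11436828 and chr12:11435602-11435901.
Shox2: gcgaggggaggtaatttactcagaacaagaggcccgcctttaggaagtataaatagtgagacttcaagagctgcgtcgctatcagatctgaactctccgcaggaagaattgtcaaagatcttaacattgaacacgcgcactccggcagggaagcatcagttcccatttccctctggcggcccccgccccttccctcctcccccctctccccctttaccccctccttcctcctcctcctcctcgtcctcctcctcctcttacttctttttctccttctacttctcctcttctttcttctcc
Hcn4: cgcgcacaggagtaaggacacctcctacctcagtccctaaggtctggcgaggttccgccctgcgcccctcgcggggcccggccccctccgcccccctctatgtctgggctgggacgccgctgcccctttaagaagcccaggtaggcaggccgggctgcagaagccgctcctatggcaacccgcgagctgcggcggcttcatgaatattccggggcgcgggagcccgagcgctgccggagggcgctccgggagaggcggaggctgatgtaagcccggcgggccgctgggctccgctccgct
Vsnl1, first start: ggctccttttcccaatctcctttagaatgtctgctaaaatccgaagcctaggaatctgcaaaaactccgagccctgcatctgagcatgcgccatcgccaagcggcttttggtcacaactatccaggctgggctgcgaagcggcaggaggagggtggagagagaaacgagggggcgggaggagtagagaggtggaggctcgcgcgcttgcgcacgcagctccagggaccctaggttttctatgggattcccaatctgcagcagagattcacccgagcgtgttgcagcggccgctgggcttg
Vsnl1, second start: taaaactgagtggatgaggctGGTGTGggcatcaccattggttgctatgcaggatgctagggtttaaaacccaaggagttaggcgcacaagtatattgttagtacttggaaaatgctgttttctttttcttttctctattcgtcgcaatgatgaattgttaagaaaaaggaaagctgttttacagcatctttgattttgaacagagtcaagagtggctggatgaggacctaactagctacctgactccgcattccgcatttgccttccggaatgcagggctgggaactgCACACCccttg
The second Vsnl1 window held the T-box core on the forward strand with its first base 229 bases before the start and as its reverse complement at base 39 after it. The other 3 windows shown had no match to it on either strand, nor did any of the 4 to the homeodomain core TAATTA or the GATA site AGATAA with its reverse complement TTATCT. Of 32851 promoter windows of this length, 19% held the T-box core, 5.29% TAATTA and 11.2% the GATA letters, so such matches are common. Reads from the 3′ end do not tell which Vsnl1 start was used.

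Hcn4 (chr9:58823412-58863175, plus strand) was spread more evenly. It had 9.11, 19.2, 14.3 and 16.7 CPM in Myl2-high Stard10-negative cells, 38.3, 22.9, 21.7 and 45.4 CPM in Myl2-low Stard10-positive cells and 57.7, 38.8, 46.1 and 52.3 CPM in Myl2-low Stard10-negative cells. The first difference was 0.89 on the log2 scale (SE 0.18, adjusted p = 0.000221) and the second 1.37 (SE 0.19, adjusted p = 1.2e-06), each higher in 4 of 4 libraries. Between the Myl2-low classes it was 0.48 higher on the log2 scale without Stard10 (SE 0.17, adjusted p = 0.0259), a call lost with DESeq2 (0.18), without Ho1 (0.122) and under 2 of the other gate limits.

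Cacna1d (chr14:30039939-30491455, minus strand) rose in steps over the same classes. Its level was 19.7, 18, 21.6 and 19 CPM in Myl2-high Stard10-negative cells, 38.3, 29.9, 34.3 and 37.3 CPM in Myl2-low Stard10-positive cells and 59.5, 59.3, 71.4 and 55.2 CPM in Myl2-low Stard10-negative cells. The 3 classes did not overlap in any library. The steps from the first class were 0.73 (SE 0.08, adjusted p = 2.53e-08) and 1.40 (SE 0.08, adjusted p = 4.56e-13) on the log2 scale, and that between the Myl2-low classes 0.67 (SE 0.07, adjusted p = 8.33e-08).

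Cacna2d2 (chr9:107399612-107529343, plus strand) differed in its order. It had 34, 27.9, 59.7 and 55.9 CPM in Myl2-high Stard10-negative cells, 96.7, 77.9, 97.6 and 108 CPM in Myl2-low Stard10-positive cells and 62.5, 60.4, 114 and 81.6 CPM in Myl2-low Stard10-negative cells. It was higher in the Myl2-low Stard10-positive cells of every library (log2 fold change 1.02, SE 0.09, adjusted p = 5.08e-09), and in the Myl2-low Stard10-negative cells less so (0.60, SE 0.11, adjusted p = 3.83e-05). Among the Myl2-high cells, too, those with a Stard10 UMI had more of it, with 89.5, 59.8, 102 and 113 CPM (log2 fold change 1.02, SE 0.10, adjusted p = 9.02e-07 against those without). Between the Myl2-low classes it was lower without Stard10 (-0.42, SE 0.10, adjusted p = 0.00135), a call lost with a Tnnt2 limit of 20 (0.0539) and a Stard10 limit of 2 UMIs (0.34).

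Among the cardiomyocyte classes the T-box genes were highest in the Myl2-low cells without Stard10. Tbx3 (chr5:119670669-119684724, plus strand) had 7.81, 4.45, 11.9 and 11.9 CPM in Myl2-high Stard10-negative, 11.8, 11.3, 14.1 and 16.9 CPM in Myl2-low Stard10-positive and 21, 22, 42.3 and 30.9 CPM in Myl2-low Stard10-negative cells. Tbx2 (chr11:85832551-85841948, plus strand) had 11.5, 8.34, 11.4 and 14.2 CPM, 6.32, 9.43, 8.71 and 10.3 CPM and 16.3, 17.5, 25.9 and 26.6 CPM in these classes. Against the Myl2-high Stard10-negative cells, the Myl2-low Stard10-negative cells had 1.47 more Tbx3 (SE 0.14, adjusted p = 3.25e-09) and 0.74 more Tbx2 (SE 0.11, adjusted p = 6.64e-06) on the log2 scale, the latter not past the test with gates from thinned cells (0.19, adjusted p = 0.162). Against the Myl2-low Stard10-positive cells the differences were 0.95 (SE 0.13, adjusted p = 2.04e-06) and 1.15 (SE 0.12, adjusted p = 2.22e-08).

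The Myl2-low Stard10-positive cells parted the T-box genes. Tbx3 was higher there than in Myl2-high Stard10-negative cells (log2 fold change 0.52, SE 0.13, adjusted p = 0.00297) and Tbx2 lower (-0.42, SE 0.11, adjusted p = 0.0036, higher in 1 of 4 libraries). Neither holds under every gate. The Tbx3 difference was -0.13 when the gates were taken from cells thinned to 2000 UMIs and missed the threshold with a Myl2 limit of 5 (0.22, adjusted p = 0.195) and a Stard10 limit of 2 UMIs (0.01, adjusted p = 0.968). That of Tbx2 missed it with a Myl2 limit of 20 (-0.07, adjusted p = 0.686) and without Ho2 (-0.36, adjusted p = 0.0574).

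Cacna1g (chr11:94408391-94474198, minus strand) was scarcely detected in cardiomyocytes, with 5, 16, 19 and 19 UMIs in all the Tnnt2-gated cells (0.243, 0.378, 0.325 and 0.452 CPM), and it did not pass the filter on low counts in the class comparisons. It had 3.47, 1.9, 1.03 and 2.23 CPM in mesenchyme-gated cells and 2.29, 2.15, 0.65 and 2.04 CPM in the cells of no gate, of which the latter was the higher in Wt2.

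Counted over the 7 members tested, 6 rose and 1 fell in the Myl2-low Stard10-positive cells against the Myl2-high Stard10-negative cells, where 44.7% of the 12506 genes tested were called in either direction. All 7 rose in the Myl2-low Stard10-negative cells, where 58% of genes were called, and 29.1% were called higher. Between the Myl2-low classes 4 rose without Stard10, 2 fell and 1 did not pass, against 46.1% of genes called. Within the Myl2-high cells, those with a Stard10 UMI had more Shox2 (log2 fold change 1.97, SE 0.37, adjusted p = 0.00173), Vsnl1 (2.11, SE 0.26, adjusted p = 9.94e-06) and Cacna2d2 and less Cacna1d (-0.52, SE 0.10, adjusted p = 0.0016), so that 4 of 7 members were called where 5.52% of genes were, and 3 rose where 3.38% of genes did. The Cacna1d call was lost with gates from thinned cells (adjusted p = 0.101). A Myl2-high cell with Stard10 had a higher depth, with medians of 17754 to 21829 UMIs against 8694 to 19364 without, and the part of depth or of doublets in these values was not tested.

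**Figure D1:**
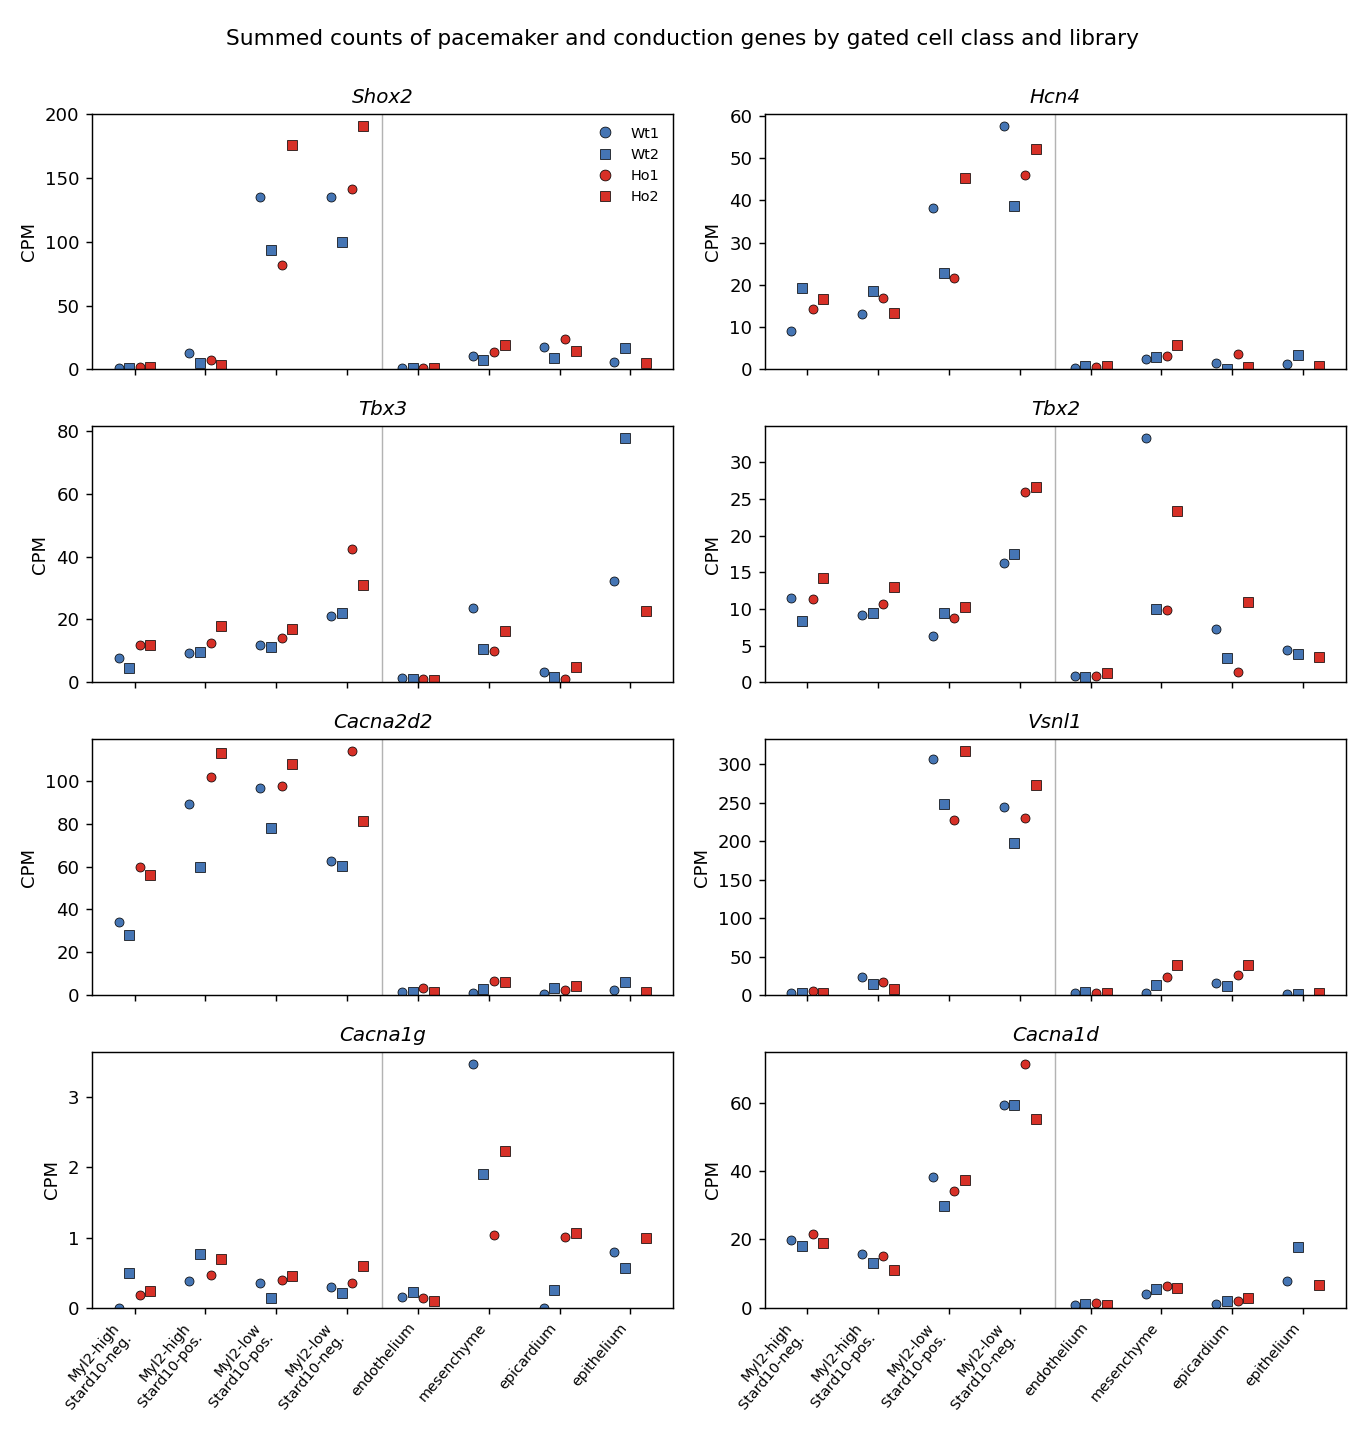
Level of each gene in CPM (linear axis from 0, a scale of its own for each gene) in the 4 cardiomyocyte classes left of the grey line and in 4 classes of other cells right of it, 1 point per library (circles replicate 1, squares replicate 2, blue Wt, red Ho). Shox2 and Vsnl1 are near 0 in Myl2-high Stard10-negative cells and reach 191 and 317 CPM in Myl2-low cells, and Ho1 has no point for epithelium, where it had no cells.

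Other genes of the same regions followed the classes in part. Of a list of 18 sinus venosus and pacemaker genes, 16 were tested, and 11 rose and 3 fell in the Myl2-low Stard10-positive against the Myl2-high Stard10-negative cells, where 21.5% of all genes were called higher and 23.2% lower, with a median log2 fold change of 0.78 beside 0.00 over all genes. Smoc2, a secreted matrix protein found in the sinus node, rose by 5.54 (SE 0.28, adjusted p = 8.61e-14), Isl1, a factor of the second heart field and sinus node, by 1.63 (SE 0.18, adjusted p = 7.51e-08) and Tbx18, which builds the sinus horns, by 1.42 (SE 0.23, adjusted p = 1.53e-05). Of 10 genes of the atrioventricular canal, 8 were tested, 6 rose and 2 fell, and the median was 0.42. The 2 that fell were Msx2, a homeobox factor (-0.87, SE 0.12, adjusted p = 1.56e-06), and Rspo3, a secreted activator of Wnt signalling (-1.32, SE 0.13, adjusted p = 1.11e-08). Bmp2, the ligand that induces the canal, rose by 1.02 (SE 0.10, adjusted p = 1.22e-08), but was at -0.02 with gates from thinned cells and at 0.26 (adjusted p = 0.149) with a Stard10 limit of 2 UMIs. Of 16 working chamber genes 6 rose and 8 fell (median -0.36), led by the ventricular factors Irx4 (-5.71, SE 0.21) and Hey2 (-5.20, SE 0.15) and, upwards, the atrial factor Hey1 (3.00, SE 0.14).

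In the Myl2-low Stard10-negative cells, 11 of 16 sinus venosus genes tested rose and 4 fell, where 29.1% of all genes were called higher and 28.9% lower, with a median of 0.72. Smoc2 was 6.44 higher (SE 0.27), Isl1 3.27 (SE 0.17), Bmp4, a ligand of the outflow and sinus venosus, 2.81 (SE 0.12) and Tbx18 2.77 (SE 0.22) on the log2 scale. Of 8 canal genes tested 6 rose and 1 fell (median 0.88), and here Msx2 (1.05, SE 0.11), Bmp2 (2.53, SE 0.10) and Rspo3 (1.06, SE 0.12) all rose, Rspo3 not past the test with a Myl2 limit of 5 (adjusted p = 0.152) or gates from thinned cells (0.266). Of 16 working chamber genes 12 fell and 3 rose (median -2.26), and among those that fell were Nppa (-4.34, SE 0.25) and Nppb (-4.05, SE 0.17), which encode natriuretic peptides, and Gja5, a connexin of fast-conducting muscle (-2.81, SE 0.25). The median over all genes was 0.01.

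Outside the cardiomyocytes the levels depended on the member and the cells. In endothelium-gated cells none of the 8 went above 3.48 CPM in any library. In mesenchyme-gated cells Tbx2 had 33.3, 9.95, 9.82 and 23.4 CPM and Tbx3 23.6, 10.6, 9.82 and 16.3 CPM. Tbx2 was above its level in the Tnnt2-gated cells in Wt1 and Ho2 and, by little, in Wt2, and Tbx3 in Wt1 and Wt2. Shox2 had 17.3, 9.14, 23.8 and 14.3 CPM and Vsnl1 16.1, 12.2, 25.5 and 38.6 CPM in epicardium-gated cells, below their levels in the Tnnt2-gated cells of every library, and in the cells of no gate Shox2 had 21.1, 18.2, 23.8 and 25 CPM and Vsnl1 7.9, 31.9, 39.9 and 43.5 CPM. In epithelium-gated cells Tbx3 had 32.1, 77.7 and 22.6 CPM in Wt1, Wt2 and Ho2, above its level in the cardiomyocytes of each of them. Vsnl1 had 2.64, 12.5, 22.7 and 38.3 CPM in mesenchyme-gated cells, and the summed cardiomyocyte markers of those cells were 423.6, 935.2, 1439 and 935.8 CPM, lowest in Wt1 as well. The part of cardiomyocyte RNA in these Vsnl1 values was not tested. No gene passed the test between Wt and Ho in the mesenchyme-gated cells (0% of 13435 genes, 332 had an unadjusted p under 0.05 and DESeq2 called 9).

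The Shox2-positive cardiomyocytes, those with a Shox2 UMI, were 347, 364, 559 and 614 cells in the same order. Of them 62.2%, 64.3%, 55.1% and 60.4% were Myl2-low Stard10-positive and 32.9%, 32.4%, 34% and 36.2% Myl2-low Stard10-negative, so few were ventricular by Myl2. The sums of cells with and without the UMI were compared within each library, with Shox2 itself left out as the gate. Vsnl1 had 532, 531, 424 and 531 CPM with Shox2 and 57.7, 46.2, 38.1 and 45.6 CPM without. This is a 9.88-fold difference with a narrow error (log2 fold change 3.30, SE 0.05, adjusted p = 4.39e-15). The sum without Shox2 also holds nearly all Myl2-high cells. In these Vsnl1 had a mean of 7.08 CPM, against 264 CPM in all Myl2-low cells. Like the other folds of this split, that of Vsnl1 thus includes the difference between the Myl2 classes. Vsnl1 and Hcn4 passed the threshold in all 14 alternatives, among them the split of Myl2-low cells alone.

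Hcn4 had 90.3, 67.1, 59 and 91.2 CPM with Shox2 and 10.8, 15.6, 13.2 and 13.6 CPM without, 5.05-fold higher (log2 fold change 2.34, SE 0.12, adjusted p = 1.56e-09). Every Shox2-positive sum lay above every Shox2-negative one. At the level of single cells, 51.9%, 49.7%, 46.3% and 61.2% of the Shox2-positive cells had an Hcn4 UMI as well, against 10.6%, 18.4%, 18.2% and 18.7% of the others, at median depths of 13150, 15404, 14904 and 16287 UMIs with Shox2 and 11757, 17429, 17947 and 19112 without. In 3 of the 4 libraries the cells with Shox2 were thus the shallower ones.

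Cacna1d (59.8, 62.5, 61.5 and 52.4 CPM with Shox2, log2 fold change 1.23, SE 0.07, adjusted p = 2.86e-09) and Cacna2d2 (119, 113, 127 and 122 CPM, log2 fold change 0.77, SE 0.09, adjusted p = 5.37e-06) were also higher in 4 of 4 libraries. Tbx3 had 19.9, 20.1, 18 and 26.7 CPM with Shox2 against 9.29, 7.99, 15.3 and 14.9 CPM without (log2 fold change 0.67, SE 0.13, adjusted p = 0.000858), a difference of 0.39 that missed the threshold when only Myl2-low cells were used (adjusted p = 0.101). Tbx2 was the one member that was lower with Shox2 (log2 fold change -0.37, SE 0.12, adjusted p = 0.0174, higher in 1 of 4 libraries), and this call was lost with DESeq2 (0.0667), without Wt1 (0.0648) and without Ho2 (0.11). In all, 5 of 6 members tested rose and 1 fell, where 45% of 13282 genes were called.

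The 10 genes most raised in the Shox2-positive cells, among those called and higher in all 4 libraries, were Igsf21, Slc30a8, Smoc2, Dipk1c, Grik1, Ttyh1, Rspo2, Spock1, Sostdc1 and Calca. The order is that of the fitted folds, and those of Igsf21 and Slc30a8 are not given because their means without Shox2 were near 0, at 0.00684 and 0.0387 CPM against 1.62 and 2.91 CPM with it. Smoc2 had 64.8, 34.6, 33.6 and 108 CPM with Shox2 and 1.02, 0.602, 0.464 and 1.42 CPM without (log2 fold change 5.97, SE 0.10, adjusted p = 5.18e-15), and Calca, which encodes the calcitonin gene-related peptide, had 181, 210, 176 and 148 CPM with and 14.8, 8.76, 6.84 and 7.33 CPM without (4.20, SE 0.11, adjusted p = 2.61e-12). From the sinus venosus list, 9 of 16 genes tested rose and 4 fell, where 21.3% of all 13282 genes were called higher and 23.6% lower (median 0.46 beside 0.00 for all genes). Tbx18 rose by 2.77 (SE 0.15, adjusted p = 2.86e-09) and Isl1 by 1.60 (SE 0.17, adjusted p = 2.33e-06).

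Genes of the chambers went the other way, with 11 of 15 tested lower and 3 higher, beside the 23.6% and 21.3% of all genes (median -1.20). Nppa had 392, 817, 423 and 193 CPM with Shox2 and 1610, 3370, 2770 and 2320 CPM without (log2 fold change -2.73, SE 0.18, adjusted p = 1.79e-08). Nkx2-5, the cardiac homeobox factor that is low in the sinus horns, had 30.4, 36.3, 34.8 and 29.5 CPM against 49.1, 41.3, 49 and 55.6 CPM (-0.72, SE 0.09, adjusted p = 8.6e-06). Irx4 fell by 3.57 (SE 0.16, adjusted p = 3.34e-10) and Hey2 by 3.04 (SE 0.13, adjusted p = 1.97e-10) on the log2 scale, but within the Myl2-low cells alone Hey2 was at 0.14. Of the canal genes, 3 of 8 rose and 4 fell, Msx2 among those that fell (-1.01, SE 0.10, adjusted p = 1.28e-06).

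The Tbx2-positive cardiomyocytes were a different set, with 161, 314, 486 and 391 cells. They came from all classes, with 36%, 33.8%, 38.5% and 31.2% Myl2-high Stard10-negative, and 15.5%, 15.3%, 13.2% and 20.7% of them had a Shox2 UMI. Their median depth of 15959, 20630, 18419 and 20016 UMIs was above that of the cells without Tbx2 in every library. Tbx3 had 14.1, 17.5, 40.2 and 39.2 CPM with Tbx2 and 11.4, 8.23, 11 and 12.8 CPM without (log2 fold change 1.42, SE 0.11, adjusted p = 3.98e-11). It was higher in 4 of 4 libraries, and more so in Ho1 and Ho2, a difference taken up further on.

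Shox2, Hcn4 and Vsnl1 were lower in the Tbx2-positive cells of every library. Shox2 had 54.5, 40.2, 21.7 and 63.7 CPM with Tbx2 and 82.8, 45.9, 44.6 and 105 CPM without (log2 fold change -0.70, SE 0.07, adjusted p = 1.56e-08). Hcn4 (-0.65, SE 0.09, adjusted p = 3.02e-06) and Vsnl1 (-0.61, SE 0.07, adjusted p = 1.95e-08) were lower to a like extent, and Tbx18 (-2.36, SE 0.15, adjusted p = 2.33e-13) and Smoc2 (-2.03, SE 0.13, adjusted p = 6.32e-13) fell further. Tbx18 and Smoc2 were the only genes of the sinus venosus list called lower, while 9 of its 16 tested genes rose (median 0.25 beside 0.01 over all genes). Cacna2d2 was higher with Tbx2 (0.48, SE 0.05, adjusted p = 5.1e-08), as was Cacna1d (0.36, SE 0.07, adjusted p = 0.000146). For Cacna1g, which was near the limit of detection, the log2 fold change was 0.84 (SE 0.51, adjusted p = 0.262). In all 3 of 7 members tested rose and 3 fell, where 21.1% of 13343 genes were called, 10.6% higher and nearly as many lower.

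Of the canal genes, 5 of 8 tested were higher with Tbx2 and 1 was lower (median 0.43 beside 0.01). Rspo3 had 217, 182, 310 and 336 CPM with Tbx2 and 61.2, 47.2, 69.4 and 54.4 CPM without (log2 fold change 2.13, SE 0.07, adjusted p = 4.13e-21), which also put it among the 10 genes most raised. Bmp2 had 41.2, 41.5, 88.9 and 115 CPM against 16.8, 14.7, 18 and 21.3 CPM (2.00, SE 0.10, adjusted p = 4.84e-16), and Msx2 rose by 1.86 (SE 0.08, adjusted p = 8.25e-17). The other genes among the 10 were Gdf2, a BMP ligand with a mean of 0.547 CPM with Tbx2 and 0.121 CPM without, Ltbp2, D030025P21Rik, Gcgr, Slfn2, Tbx3os1, Rbfox3, Tceal6 (2.19, SE 0.17, adjusted p = 2.84e-11) and 2610027K06Rik. Tbx3os1 (2.33, SE 0.25, adjusted p = 2.34e-08) is annotated antisense to Tbx3. Of the chamber genes 11 of 16 fell and 4 rose (median -0.88), with Nppa at -1.89 (SE 0.05, adjusted p = 7.7e-22) and Gja5 at -1.24 (SE 0.09, adjusted p = 1.03e-11).

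**Figure D2:**
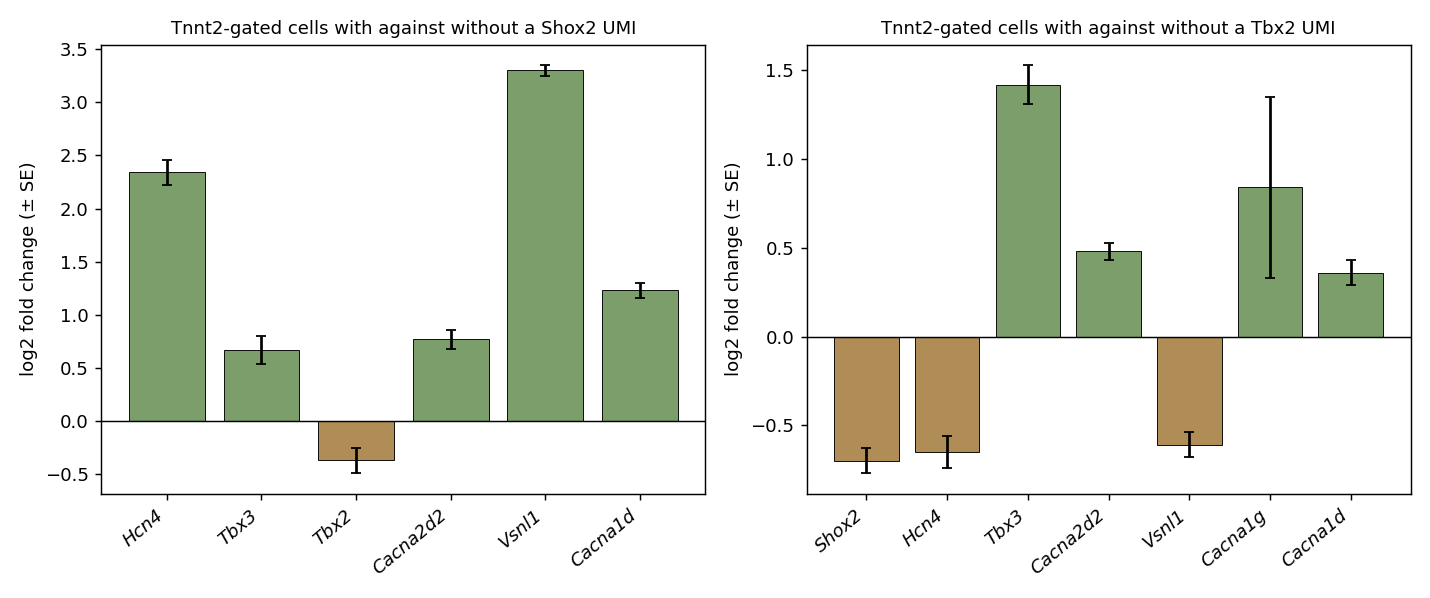
Log2 fold change of the members between cardiomyocytes with and without a Shox2 UMI (left) and with and without a Tbx2 UMI (right), as bars from 0 with the standard error from edgeR over 4 libraries. Vsnl1 and Hcn4 are 3.30 and 2.34 higher with Shox2 and 0.61 and 0.65 lower with Tbx2, and Cacna1g is shown only on the right because it did not pass the filter on the left.

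How alike the members were over all cells was described over the 35 sums of a class in a library that held at least 50 cells. These sums share libraries and depth, so the correlations are given without a test. Shox2 and Vsnl1 were each other's closest gene of the 9705 genes compared (Pearson r of 0.905 on log2(CPM + 1)), followed for Shox2 by Nr2f1 and Tceal8 and for Vsnl1 by Wnt2 and Cav1. Hcn4 was most like Rec114 (0.970), a gene of meiotic recombination that lies on the opposite strand of the same chromosome, 79448 bases away, then Fbxo32 and Dstn. Cacna2d2 was most like Fbxo32 (0.973), Rrad and the atrial myosin Myh6, and Cacna1d like Ube2b (0.962), Ank3 and Klhdc8b. For Tbx3 the closest were Ift81, Enah and Tspyl4 (0.914, 0.892 and 0.892), for Tbx2 Prrx2, B3galnt1 and Bcat1 (0.863, 0.835 and 0.835), and for Cacna1g, which is near the limit of detection, Cdc23, Rnps1 and Dusp9 (0.849, 0.785 and 0.782). Among the members themselves the correlation was 0.92 for Hcn4 and Cacna1d, 0.91 for Hcn4 and Cacna2d2 and 0.70 for Tbx2 and Tbx3.

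The comparison of Ho with Wt asks whether the Cyp51 allele goes with another level of these genes. In whole libraries Cacna2d2 had 16.3, 23.2, 46.6 and 40.7 CPM, the values by which it was chosen, a 2.30-fold difference (log2 fold change 1.20, SE 0.20). In a sum over whole libraries more cardiomyocytes and more RNA per cardiomyocyte cannot be told apart. The share of Tnnt2-gated cells was 18.8% and 36.3% in Wt and 48.7% and 38.8% in Ho, and within the Tnnt2-gated cells the levels were 71.4, 54, 85.8 and 89.2 CPM, 1.39-fold apart (0.48, SE 0.12). By class the difference was 0.89 (SE 0.12) in Myl2-high Stard10-negative cells, 0.25 (SE 0.11) in Myl2-low Stard10-positive and 0.69 (SE 0.16) in Myl2-low Stard10-negative cells. In mesenchyme-gated cells, at a lower level, Cacna2d2 had 1.14, 2.68, 6.29 and 6.13 CPM (1.75, SE 0.42), and the part of cardiomyocyte RNA in these values was not tested. The libraries of Wt and Ho did not overlap in any of these sums, but the size depended on single libraries: it was 0.29 in all Tnnt2-gated cells and 0.09 in Myl2-low Stard10-positive cells without Wt2, and 0.41 in Myl2-low Stard10-negative cells without Ho1. The genotypes overlapped in endothelium-gated cells (means of 1.43 CPM in Wt and 2.47 in Ho) and in epicardium-gated cells (1.73 and 3.18). In epithelium-gated cells Ho2 (1.24 CPM) lay below both Wt libraries (mean 4.16 CPM). The difference between the genotype effects of Myl2-low and Myl2-high cells was -0.44 on the log2 scale (SE 0.09), with a larger effect in the Myl2-high cells. All of these are the contrast of the choice or depend on it, and no test is given. No gene passed between whole libraries (0% of 16978 genes, with 786 at an unadjusted p under 0.05 and 22 called by DESeq2). There Shox2 had 24.3, 21.4, 24.3 and 48.3 CPM, Vsnl1 38.8, 51.1, 55.3 and 83.1 CPM and Hcn4 7.65, 10.3, 11.3 and 15.8 CPM, with the highest value of each in Ho2. Tbx3 had 15.5, 7.83, 9.67 and 13.4 CPM and Tbx2 17.8, 6.75, 7.63 and 13.9 CPM, highest in Wt1, the library with the most mesenchyme-gated cells.

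**Figure D3:**
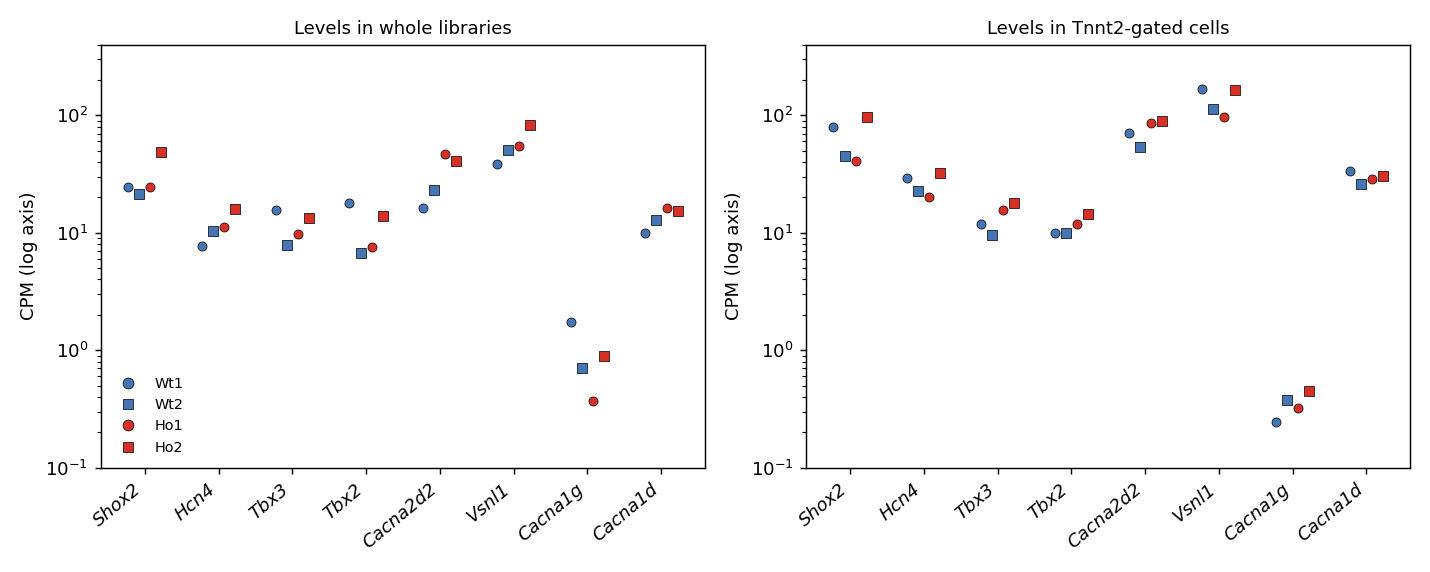
Level of each gene in CPM on a log axis in whole libraries (left) and in the Tnnt2-gated cells (right), 1 point per library (circles replicate 1, squares replicate 2, blue Wt, red Ho). For Cacna2d2, Tbx3 and Tbx2 both Ho points lie above both Wt points on the right, while for Shox2, Hcn4, Vsnl1 and Cacna1d the genotypes overlap there.

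Within the Tnnt2-gated cells no gene passed the test between genotypes (0% of 14650 genes, of which 971 had an unadjusted p under 0.05, while DESeq2 called 24). Shox2 had 79.2, 45, 40.9 and 97.2 CPM, with the lowest and the highest value both in Ho (log2 fold change 0.13, SE 0.35, adjusted p = 0.956). Vsnl1 had 169, 113, 96.7 and 164 CPM (-0.13, SE 0.23, adjusted p = 0.937) and Hcn4 29.5, 22.6, 20.2 and 32.5 CPM (0.00, SE 0.19, adjusted p = 1). In all 3 genes Wt1 and Ho2 were high and Wt2 and Ho1 low, so the replicates of a genotype differed more than the genotypes. The sign of each depended on the library left out, and Shox2 was called in opposite directions without Ho1 (0.61, adjusted p = 0.0382) and without Ho2 (-0.54, adjusted p = 0.0429), and Vsnl1 without Ho2 (-0.49, adjusted p = 0.0164). Here and in what follows, a genotype comparison with 1 library left out sets a single library against 2, takes the spread from those 2 and assumes that the lone library varies like them.

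Cacna1d had 33.3, 26.1, 28.9 and 30.2 CPM (-0.01, SE 0.12, adjusted p = 0.995) and Cacna1g differed by 0.22 (SE 0.43, adjusted p = 0.948). Tbx3 had 11.8, 9.66, 15.7 and 17.8 CPM (log2 fold change 0.65, SE 0.12, adjusted p = 0.38, unadjusted p = 0.000502). Tbx2 had 9.88, 9.94, 11.9 and 14.5 CPM (0.40, SE 0.11, adjusted p = 0.575). For the T-box genes the Ho libraries lay above the Wt libraries, and for Tbx3 the adjusted p ranged from 7.5e-06 to 0.73 over the alternatives, under the threshold in 4 of 15 alternatives, among them the fits with a single Ho library (0.69, adjusted p = 0.00479 without Ho1, and 0.62, adjusted p = 0.00259 without Ho2) and that with no filter on low counts, and far above it with a single Wt library (0.79, adjusted p = 0.684 without Wt1, and 0.50, adjusted p = 0.73 without Wt2).

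By class, Tbx3 differed by 1.05 in Myl2-high Stard10-negative cells (SE 0.22, adjusted p = 0.161), by 0.45 in Myl2-low Stard10-positive cells (SE 0.13, adjusted p = 0.962) and by 0.78 in Myl2-low Stard10-negative cells (SE 0.18, adjusted p = 0.213). In each of these classes both Ho libraries were above both Wt libraries, with none of the 3 past the threshold. The classes come from the same 4 libraries, so they do not repeat each other independently. For such an order of 2 against 2 libraries, here and for other genes, the smallest exact two-sided permutation p is 0.333. The share of all genes with this order was not taken. In the Myl2-low Stard10-positive cells the Tbx3 difference was -0.02 with gates from thinned cells. In the Myl2-high Stard10-negative cells 0.0477% of 12569 genes passed, 0.0398% higher and 0.00796% lower. Tbx3 was called there in 5 of 18 alternatives, among them a Tnnt2 limit of 20 (1.12, adjusted p = 0.015) and no filter on low counts. It was at 1.40 without Wt1, at 1.09 without Ho2 and at 0.56 without Wt2. In the Myl2-low Stard10-negative cells 0% of 11692 genes passed, with 1087 at an unadjusted p under 0.05 and 9 called by DESeq2. Tbx3 was called there in 3 of 18 alternatives. Among them were no filter on low counts and the replicate number as a block (0.752, adjusted p = 0.0298). Without Ho2 Tbx3 was at 1.01. The difference of its genotype effect between Myl2-low and Myl2-high cells was -0.32 (SE 0.17, adjusted p = 0.836).

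Shox2 was also at 1.14 (SE 0.40, adjusted p = 0.504) in the Myl2-high Stard10-negative cells, from values near 1 CPM, and at 0.52 (SE 0.17, adjusted p = 0.335) in the Myl2-low Stard10-negative cells, where Tbx2 was at 0.65 (SE 0.15, adjusted p = 0.213). In Myl2-low Stard10-positive cells, with 0.0233% of 12878 genes called, none of the 6 members with a test passed. Of the canal genes Bmp2 passed in the Myl2-high Stard10-negative cells, with 8.78, 6.98, 15.3 and 18.6 CPM (log2 fold change 1.10, SE 0.16, adjusted p = 0.0412). The call was lost without Wt2 (0.89, adjusted p = 0.0624), with doublets kept (0.0797) and with 3 other gates. In all Tnnt2-gated cells Bmp2 differed by 0.81 (SE 0.12, adjusted p = 0.179) and Rspo3 by 0.53 (SE 0.10, adjusted p = 0.387), both past the threshold with DESeq2 (0.000143 and 0.0119) and with a single Ho library. Tbx18 differed by 0.70 (SE 0.28, adjusted p = 0.744), from 0.141 to 1.125 with 1 library left out, the latter without Ho1. It passed in 3 of 15 alternatives, among them no filter on low counts (adjusted p = 3.7e-06). Isl1, of the same list, had a mean of 29.7 CPM in Ho against 41.3 in Wt, and the genotypes overlapped. Its means were 7.52 against 15.1 CPM in Myl2-high Stard10-negative and 97.7 against 152 CPM in Myl2-low Stard10-negative cells, without overlap. In Myl2-low Stard10-positive cells they were 36.8 against 36.3 CPM. In all Tnnt2-gated cells the median of the sinus venosus list was 0.18, that of the canal list 0.17 and that of the working chamber list 0.05. The median over all genes was 0.00, and no gene of the 3 lists passed the test there.

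Of the sums compared, the genotype difference of Tbx3 was largest in the cells with a Tbx2 UMI. This comparison was added after the values by Tbx2 had been seen. In the Tbx2-positive cardiomyocytes Tbx3 had 14.1, 17.5, 40.2 and 39.2 CPM, a 2.39-fold difference (log2 fold change 1.26, SE 0.15, adjusted p = 0.000864), in a comparison in which 0.177% of 11884 genes passed (0.0589% lower in Ho). The Ho values lay close together and far above those of Wt. It was called in every alternative run, with adjusted p-values of 1.03e-12 to 0.0105. In single cells, 18.6% and 24.2% of the Tbx2-positive cells had a Tbx3 UMI in Wt1 and Wt2, and 41.4% and 41.7% in Ho1 and Ho2. Among the cells without Tbx2 the shares were 10.4%, 9.41%, 13.3% and 14%. The median depth of the Tbx2-positive cells was 15959, 20630, 18419 and 20016 UMIs, highest in Wt2 and lowest in Wt1, which had the lowest share. These shares are of unthinned cells, and the part of depth in them was not tested.

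With Tbx3, the canal genes Bmp2 (41.2, 41.5, 88.9 and 115 CPM, log2 fold change 1.27, SE 0.13, adjusted p = 0.000133) and Rspo3 (217, 182, 310 and 336 CPM, 0.67, SE 0.12, adjusted p = 0.0322) rose in the Tbx2-positive cells of Ho, 2 of the 8 canal genes tested. Msx2 had 29.7, 37.2, 52.9 and 52.1 CPM (0.59, SE 0.13, adjusted p = 0.0983), past the threshold in 6 of 14 alternatives (adjusted p from 0.000515 to 0.727). The Rspo3 call was lost without Wt2 (0.52, adjusted p = 0.52). The gene with the lowest adjusted p was Gal, which encodes the peptide galanin, with 20.2, 16.9, 89.2 and 71.9 CPM (2.13, adjusted p = 4.65e-06). None of the sinus venosus or working chamber genes passed. Of the genes named above for the Shox2 and Tbx2 splits, Calca was lower in Ho (-0.89, adjusted p = 0.0151) and Tceal6 higher (1.25, adjusted p = 0.0442). Cacna2d2 had 77.4, 68.8, 126 and 124 CPM there (0.76, SE 0.12, given without a test).

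None of Shox2, Vsnl1, Hcn4 and Cacna1d passed in these cells. Shox2 was at -0.17 (SE 0.30, adjusted p = 0.883), Vsnl1 at -0.10 (SE 0.17, adjusted p = 0.884), Hcn4 at 0.37 (SE 0.23, adjusted p = 0.594) and Cacna1d at 0.02 (SE 0.13, adjusted p = 0.971). These rest on Ho1 and Ho2, which differ: without Ho2 Shox2 was at -1.05 (adjusted p = 7.96e-09) and Vsnl1 at -0.51 (adjusted p = 0.00291), and without Ho1 Hcn4 was at 0.66 (adjusted p = 0.0202). Of the Tbx2-positive cells, 24.8% and 19.1% were Myl2-low Stard10-negative in Wt1 and Wt2 and 19.1% and 27.1% in Ho1 and Ho2. The Myl2-high Stard10-positive share was 11.2% and 14.6% in Wt and 20.4% and 15.1% in Ho. The Myl2-low Stard10-positive share was 28% and 32.5% in Wt and 22% and 26.6% in Ho. The part of these class shares in the genotype differences was not tested. The blood markers stood at 443.7 CPM in Ho1 against at most 8.617 in the other libraries. The Tbx3 difference was 1.18 with Ho1 left out and 1.32 with Ho2 left out.

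The difference of the genotype effects between cells with and without Tbx2 was tested directly, with the library as a block, also after the values had been seen. Tbx3 was at 0.89 (SE 0.17, adjusted p = 0.0078), Bmp2 at 0.91 (SE 0.11, adjusted p = 6.53e-06) and Rspo3 at 0.45 (SE 0.09, adjusted p = 0.0124), each with the larger effect in the Tbx2-positive cells. Shox2 was at -0.50 (SE 0.12, adjusted p = 0.0473), where 0.255% of 13343 genes passed. The Tbx3 call was lost with DESeq2 (0.768), without Wt1 (0.65, adjusted p = 0.07), without Ho1 (0.76, adjusted p = 0.315) and without Ho2 (1.01, adjusted p = 0.22). The Rspo3 call was lost with DESeq2 (adjusted p = 1), with doublets kept (0.0951) and without Ho2 (0.23, adjusted p = 0.814), and the Bmp2 call without Ho2 (0.84, adjusted p = 0.0724). The Shox2 call was lost in 8 of the alternatives, among them DESeq2 and leaving out Wt2, Ho1 or Ho2. Cacna2d2 was at 0.31 (SE 0.09) without a test.

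**Figure D4:**
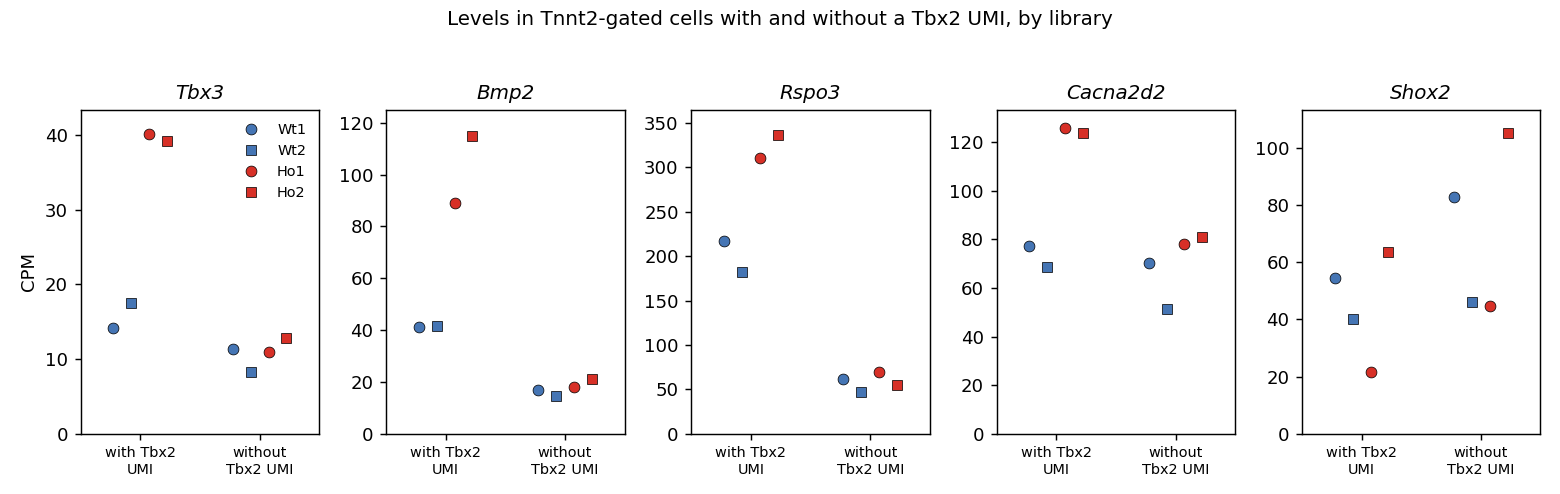
Level in CPM (linear axis from 0, a scale of its own for each gene) of 5 genes in cardiomyocytes with and without a Tbx2 UMI, 1 point per library (circles replicate 1, squares replicate 2, blue Wt, red Ho). The Ho points of Tbx3 lie at 40.2 and 39.2 CPM with Tbx2 against 14.1 and 17.5 CPM in Wt, and between 8.23 and 12.8 CPM without Tbx2 in all 4 libraries.

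In Shox2-positive cardiomyocytes, also compared after the values had been seen, no gene passed between genotypes (0% of 11978 genes, with 681 at an unadjusted p under 0.05 and 2 called by DESeq2). Tbx3 was at 0.16 there (SE 0.18, adjusted p = 0.942) and Vsnl1 at -0.16 (SE 0.11, adjusted p = 0.89). Cacna2d2 had 119, 113, 127 and 122 CPM, a difference of 0.09 (SE 0.10), and all 4 libraries lay close together.

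The share of cardiomyocytes with a UMI of each member was taken after thinning every cell to 2000 UMIs, which left out 282, 359, 278 and 186 shallower cells. For Shox2 it was 12.7% (exact 95% interval 11 to 14.5%), 7.15%, 7.27% and 14.1%, and for Vsnl1 23%, 15.9%, 14.9% and 21.4%, with Wt1 and Ho2 again the high libraries. For Tbx3 it was 2.88%, 2.05%, 2.98% and 3.56%, and for Tbx2 2.66%, 2.37%, 2.75% and 2.78%. Endothelium-gated cells, which should lack these genes, gave at most 0.933% for any member, so the shares of Shox2, Vsnl1, Tbx3 and Tbx2 were above this background, while those of Cacna1g (at most 0.137%) were not. Unthinned, the shares of Shox2 were 20.7%, 14%, 16.4% and 25.8%. Those of Tbx3 were 11.2%, 11.2%, 17.3% and 18.6%, and those of Tbx2 9.62%, 12.1%, 14.3% and 16.4%. The cells then had median depths of 12092, 16930, 17330 and 18050 UMIs, so that unthinned shares can also depend on depth. Those of Tbx2 rose in the order of depth. The Shox2 share of Wt1, the shallowest library, was above those of Wt2 and Ho1. With Cacna2d2 left aside, the exact two-sided permutation test of the shares between genotypes gave p = 0.333 for Tbx3 and Tbx2, the smallest that 2 against 2 libraries allow, and 0.667 for the others, so it cannot pass the threshold. The intervals cover counting error only.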

How the data were processed

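Hearts were profiled with 10x 3′ v3.1 chemistry, which reads the 3′ end of each transcript. The authors deposited UMI counts per gene and cell, made with Cell Ranger 6.1.1 on mm10 at its defaults, which count reads in the sense of a gene, and Seurat 4.1.0 is also listed in the submitters' processing notes. Cells with at most 20% mitochondrial UMIs, 500 to 50000 UMIs and 500 to 6000 genes were kept, and the cells with the highest Scrublet scores (scanpy 1.11.5, a share growing with the cell number) were removed as doublets, 746, 464, 440 and 334 cells. Other cell classes needed 2 markers. Counts were summed per library and class, since cells are not replicates, and tested with edgeR 4.0.16 (R 4.3.3, quasi-likelihood, TMM, filterByExpr, Benjamini-Hochberg over all genes, threshold 0.05). The library was a block in comparisons between classes, and the genotype compared 2 with 2 libraries. DESeq2 1.42.0 was an alternative. On simulated data the genotype comparison of all Tnnt2-gated cells recovered 57 of 200 genes changed by 0.5 and 158 of 200 changed by 1 on the log2 scale, calling 9 and 17 unchanged ones. In both settings the unchanged genes were a larger share of the calls than the 0.05 of the threshold.

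Named were the 8 members, genes of 3 lists (sinus venosus and pacemaker, atrioventricular canal, working chamber), the 10 most raised genes of each split that were higher in all 4 libraries, and the 3 most like genes of each member. The members and lists were chosen with earlier results of these data known. Gal was named after its values were seen. Some genes of the lists are not reported here by name.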

Additional observations from a re-analysis of the deposited data

Results flagged for a closer look

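The effect of the genotype in Tnnt2-gated cells differed between the cells with and without a Tbx2 UMI for 4 of the genes described, by an interaction term with the library as a block. The log2 difference of the effects was 0.89 for Tbx3, 0.91 for Bmp2 and 0.45 for Rspo3, with the larger effect in the Tbx2-positive cells, and -0.50 for Shox2. This comparison was added after the values had been seen, and each call was lost under at least 1 of the alternatives.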

How the results depend on the processing

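Over 117 pairs of a gene and a comparison, 1729 values were computed under alternatives. Of these 1607 kept their direction and side of the threshold, 45 missed it, 44 newly passed it and 33 turned in sign, and the cause was not tested. The number of genes called between genotypes was the least stable. In all Tnnt2-gated cells (0 called) it was 24 with DESeq2, 228 with no filter on low counts, 1 with at least 10 counts in every library, 8 with a Tnnt2 limit of 20 and 1 to 358 with 1 library left out. In Myl2-high Stard10-negative cells (6 called) these were 14, 135, 10, 22 and 34 to 83, with 10 at a mitochondrial limit of 10% and 0 with doublets kept or a Myl2 limit of 5 or 20. In Myl2-low Stard10-positive cells (3 called) they were 5, 78, 5, 9 and 40 to 91, with 1 for doublets kept, 0 for a Tnnt2 limit of 5 or a Myl2 limit of 5 or 20, 8 for a Stard10 limit of 2 UMIs and 10 for thinned gates. In Myl2-low Stard10-negative cells (0 called) there were 9 with DESeq2, 307 with no filter, 1 with a Myl2 limit of 5 and 0 to 68 with 1 library left out. Mesenchyme (0 called) had 9 with DESeq2, 182 with no filter and 0 to 3, and whole libraries (0 called) 22 with DESeq2 and 0 to 5. In Tbx2-positive cells (21 called) there were 181 with no filter, 32 with a Tnnt2 limit of 20 and 18 to 354, and in Shox2-positive cells (0 called) 2 with DESeq2, 116 with no filter, 1 with at least 10 counts or a Tnnt2 limit of 5 and 5 to 185. The interaction of genotype and class (0 called) had 82 with no filter and 4 to 345, and that of genotype and Tbx2 (34 called) 8 with DESeq2, 93 with no filter and 4 to 83. Between classes, thinned gates gave 3562 for the Myl2-low cells (5771 called), and leaving out a library gave 266 to 483 for the Myl2-high cells (690 called). The Shox2 split (5972 called) had 3710 in Myl2-low cells alone, and the Tbx2 split (2816 called) 1793 there, 1457 with DESeq2 and 1557 to 2926 with 1 library left out.

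The labels name no pairing of same-numbered Wt and Ho libraries. The correlation of their deviations from the genotype mean was -0.17 over 9114 genes. That of the crossed numbers is 0.17 by construction, because 2 libraries deviate from their mean by equal and opposite amounts. These values do not decide whether the numbers mark a shared batch. With the replicate block the genes called were 5 in all Tnnt2-gated, 25 in Myl2-high Stard10-negative, 21 in Myl2-low Stard10-positive, 130 in Myl2-low Stard10-negative, 212 in Tbx2-positive and 7 in Shox2-positive cells. In the Myl2-low Stard10-negative cells Tbx3 passed with the block (0.752, adjusted p = 0.0298). With the crossed pairing, added after the data were seen, they were 120, 37, 53, 47, 113 and 45, with 55 in mesenchyme and 64 in whole libraries.

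Signs turned mostly for genotype effects near 0. In all Tnnt2-gated cells Hcn4 (0.00) was at -0.001 with RLE normalization, -0.006 with DESeq2, -0.013 with the replicate block, -0.022 with the crossed block and -0.015 with a Tnnt2 limit of 20, and Cacna1d (-0.01) at 0.006 with doublets kept, 0.044 and 0.065 with a Tnnt2 limit of 5 and 20 and 0.031 with thinned gates. With 1 library left out, Hcn4 ranged from -0.306 to 0.275, Cacna1d from -0.18 to 0.176, Vsnl1 from -0.491 to 0.195 and Shox2 from -0.537 to 0.606. In Tbx2-positive cells the ranges were -1.045 to 0.413 for Shox2, -0.512 to 0.216 for Vsnl1, -0.018 to 0.823 for Hcn4 and -0.014 to 0.06 for Cacna1d, and in Shox2-positive cells -0.121 to 0.39 for Tbx3. Thinned gates put Tbx3 in Myl2-low Stard10-positive cells at -0.019 between genotypes and, against Myl2-high Stard10-negative cells, Tbx3 at -0.128 and Bmp2 at -0.016. Between the Myl2-low classes Shox2 was at -0.02 with a Tnnt2 limit of 5, -0.128 with a Myl2 limit of 20 and -0.049 to 0.155 with 1 library left out, and between the Myl2-high classes Hcn4 at -0.079 to 0.179. Hey2 in the Shox2 split was at 0.144 in Myl2-low cells alone. The difference in the share of cells with a UMI (Ho minus Wt) turned for Cacna1d, from 0.966 to -1.24 percentage points at 5000 UMIs, and for Vsnl1, from -1.37 to 4.06 without thinning. Cacna1g had 5 to 19 UMIs a library in cardiomyocytes, too few for most of the tests.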
